A study of Mus musculus with 18 samples.

Results

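The circadian clock genes described here were 10 genes of the core molecular clock and its output: Arntl (also called Bmal1), Clock, Npas2, Per1, Per2, Per3, Cry1, Cry2, Nr1d1 and Dbp. The rule that chose them names genes by their known role and uses no measured value, although it was set with earlier results of these data known. They were found by gene identifier among the 55401 lines of the endothelial table and by symbol among the 22612 lines of the EO771 table. All 10 were present in both tables. Of these, 9 reached the mean of 10 in the endothelial libraries that the test required, Npas2 being the exception, and 10 were tested in the EO771 table.

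RNA was sequenced in 18 mouse libraries, in 6 groups of 3. For 12 of them, endothelial cells were sorted as CD45- CD31-high cells from female wild-type C57BL/6 mice and divided by PNAd, the sugar epitope that marks high endothelial venules. BEC normal libraries were PNAd- blood vessel endothelial cells of the mammary fat pad of mice without tumours, and BEC tumour libraries were the same sort of cell from primary EO771 tumours. HEC normal libraries were PNAd+ high endothelial cells of inguinal lymph nodes from tumour-free mice, and HEC tumour libraries were PNAd+ cells of inguinal lymph nodes of mice bearing EO771 tumours, a tissue that the labels call lymph node metastases. A further 6 libraries were of EO771, a single mouse mammary cancer line grown in culture, given vehicle or 12-HETE, a lipid made from arachidonic acid by the enzyme ALOX12. No genotype differed between the groups. The sources used here do not give the hour at which tissue was taken or cells were harvested, nor do they say whether an endothelial library came from a single mouse or a pool. The study describes its replicates as independent experiments, which the labels do not state, and p-values measure the spread between these libraries. Fat pads were digested for the shortest time and tumours for the longest, with different enzymes. The methods describe the same organ and digestion for both HEC groups. Between the other endothelial groups, tissue and digestion cannot be told apart from the groups. The hour of collection cannot be told apart from any of the groups.

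The clock is a feedback loop in which the ARNTL and CLOCK proteins, or NPAS2 in place of CLOCK, bind E-box sequences and switch on the Per and Cry genes, whose proteins then inhibit the pair. A second loop runs through NR1D1, a nuclear receptor that is itself switched on through E-boxes and represses Arntl through ROR elements. DBP is an output factor that binds D-box sequences, and in many tissues, blood vessels included, Dbp and Nr1d1 RNA peak at a time of day opposite to that of Arntl RNA. Per1 is also an acute response gene, switched on by cyclic AMP signalling and by glucocorticoids.

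Promoter windows of 300 bases, from 250 bases before each start site, were available from RefSeq (GRCm38.p6) for 9 of the 10 genes, in 13 windows. Both strands were searched. The E-box CACGTG stood in 7.15% of the 32851 windows of all genes and in windows of Per1 and Cry1. The D-box, searched as TTATGTAA and TTACGTAA, stood in 1.06% of all windows and in that of Per3. The ROR half-site AGGTCA, which can share 2 bases with an E-box, stood in 16.3% of all windows and in windows of Arntl, Clock and Per1. The following stretches are shown because they hold the letters through which the loop is known to act on its targets, with the matches in capitals: those of Per1 (chr11:69098759-69098812, + strand), Cry1 (chr10:85185085-85185138, - strand), Per3 (chr4:151044801-151044885, - strand) and Ciart, a further clock repressor described below (chr3:95882252-95882359, - strand). A match is a description of these letters and not of binding.
Per1, E-box: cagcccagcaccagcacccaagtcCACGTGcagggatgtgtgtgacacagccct
Cry1, E-box: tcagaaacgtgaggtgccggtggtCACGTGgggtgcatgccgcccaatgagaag
Per3, D-box: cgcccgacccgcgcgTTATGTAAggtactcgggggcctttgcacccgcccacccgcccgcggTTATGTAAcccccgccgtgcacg
Ciart, E-box: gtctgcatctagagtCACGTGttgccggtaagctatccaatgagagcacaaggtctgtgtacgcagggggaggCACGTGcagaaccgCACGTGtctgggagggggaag
The Per3 stretch held 2 matches and the Ciart stretch 3, while those of Per1 and Cry1 held 1 each.

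The endothelial libraries totalled 56.4 to 79.4 M in the deposited units, or 14.96 to 21.05 M after division by the step of 3.77 in which low values were spaced, and the EO771 libraries totalled 17.3 to 18.6 M counts. Each table was scaled on its own, and levels are not compared across the tables. Each of the 10 general endothelial markers was above 0 in at least 1 library of every endothelial group. Their summed level was 3410 to 3654 CPM in BEC normal, 2494 to 2555 for BEC tumour, 2624 to 2777 in HEC normal and 2697 to 2744 for HEC tumour. Against BEC normal, 2 of the 10 were called lower in HEC normal and 3 in BEC tumour, with none higher, beside 15.1% and 10.8% of all genes lower. Among them, Cldn5 was at log2 -7.89 in HEC normal and -9.54 for BEC tumour. Glycam1 and Chst4, which define high endothelium, were at 0 in all BEC libraries, while Chst2 was at 0 in every HEC library and Madcam1 in the HEC normal libraries. The summed level of 9 leukocyte markers was 636 to 1067 CPM in BEC tumour against 6.34 to 12.1 in BEC normal, 6.96 to 7.85 in HEC normal and 4.24 to 7.94 for HEC tumour, and that of 5 epithelial and tumour cell markers was 5.77 to 74.1 CPM in BEC tumour and at most 3.31 in the other endothelial groups. The summed level of 8 fibroblast and pericyte markers was 824 to 833 CPM in BEC normal, 78.3 to 109 for BEC tumour, 25.2 to 26.3 in HEC normal and 10.7 to 12.0 for HEC tumour. Their part in the clock gene values was not tested, and in these bulk samples fewer cells of a type and less RNA per cell cannot be told apart.

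Arntl, the activator whose RNA runs opposite to the output genes, had normalised counts of 2361, 2073 and 2236 in the 3 BEC normal libraries and 3842, 3649 and 3486 in the BEC tumour libraries. The counts were 2726, 2716 and 2565 in HEC normal and 2876, 2922 and 3082 for HEC tumour. BEC tumour stood above every other group and BEC normal below, with no overlap between any of the 4 groups. Clock, the partner of Arntl, had counts of 4173, 2273 and 2211 in BEC normal, 5233, 4908 and 3948 for BEC tumour, 2967, 649 and 2828 in HEC normal, and 3691, 4062 and 4140 for HEC tumour. The second HEC normal library was far below its 2 fellows and the first BEC normal library far above its own. Among the 8741 genes with a mean of at least 1000 in HEC normal, 0.858% had a larger coefficient of variation than Clock (60.5%), and in BEC normal 2.47% of 8931 genes did (38.6%). Npas2, the alternative partner, was near the floor, with 17.6, 23.5 and 12.2 in BEC normal, 0, 0 and 3.49 for BEC tumour, 0, 4.07 and 0 in HEC normal, and 0 in each HEC tumour library. A library at 0 allows up to 3 fragments, or 11.3 in the deposited units, which is near the 12 deposited for the third BEC normal library. Npas2 was not tested in endothelial cells. All 3 BEC normal libraries had larger values than the other 9, by an amount this depth barely resolves for the third.

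Among the Per and Cry genes, the repressors of the first loop, Per1 was the most abundant per kb of exon in every endothelial group. Its counts were 4098, 4813 and 4619 in BEC normal, 9450, 9750 and 8296 for BEC tumour, 9078, 8792 and 9299 in HEC normal, and 5504, 5302 and 5154 for HEC tumour. Per1 was thus low in the fat pad vessels and high in the tumour vessels, whereas in lymph nodes it was high without a tumour and lower with one. Per2, which closes the same loop, gave 859, 951 and 968 in BEC normal against 204, 200 and 186 for BEC tumour, 229, 150 and 206 in HEC normal, and 179, 132 and 118 for HEC tumour. BEC normal stood alone for Per2, above all other libraries. Per3, the third Per gene, gave 410, 425 and 406 in BEC normal, 361, 354 and 350 for BEC tumour, 778, 689 and 758 in HEC normal, and 412, 415 and 463 for HEC tumour. HEC normal stood above all other groups for Per3 and BEC tumour below them, while BEC normal and HEC tumour overlapped.

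Cry1, the stronger clock repressor of the Cry pair, had counts of 1228, 1137 and 1286 in BEC normal, 606, 634 and 757 for BEC tumour, 1062, 1082 and 1047 in HEC normal, and 1239, 1230 and 1275 for HEC tumour. BEC tumour was below the other groups, and BEC normal overlapped with HEC tumour. Cry2 had counts of 1070, 1238 and 1176 in BEC normal, 1537, 1577 and 1509 for BEC tumour, 1715, 1916 and 1843 in HEC normal, and 1468, 1649 and 1291 for HEC tumour. The 2 tumour groups overlapped for Cry2, with BEC normal lowest and HEC normal highest.

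Nr1d1, the nuclear receptor of the second loop, was the member with the highest level per kb in 3 of the endothelial groups, at 1024 ± 79.1 normalised counts per kb in BEC normal, 2398 ± 157 in HEC normal and 1687 ± 43.2 for HEC tumour (SD, n = 3), while in BEC tumour it was at 376 ± 14.7 and Per1 was highest at 1628 ± 136. By library its counts were 3002, 3021 and 3433 in BEC normal, 1152, 1115 and 1205 for BEC tumour, 7924, 7203 and 7008 in HEC normal, and 5343, 5134 and 5095 for HEC tumour. The 4 groups were fully separate, with the HEC groups on top and BEC tumour at the bottom. Dbp, the output gene, had counts of 761, 810 and 878 in BEC normal, 117, 120 and 220 for BEC tumour, 1513, 1810 and 1663 in HEC normal, and 590, 481 and 539 for HEC tumour. Its groups were also separate, HEC normal being highest and BEC tumour lowest, with the third BEC tumour library above its 2 fellows.

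**Figure D1:**
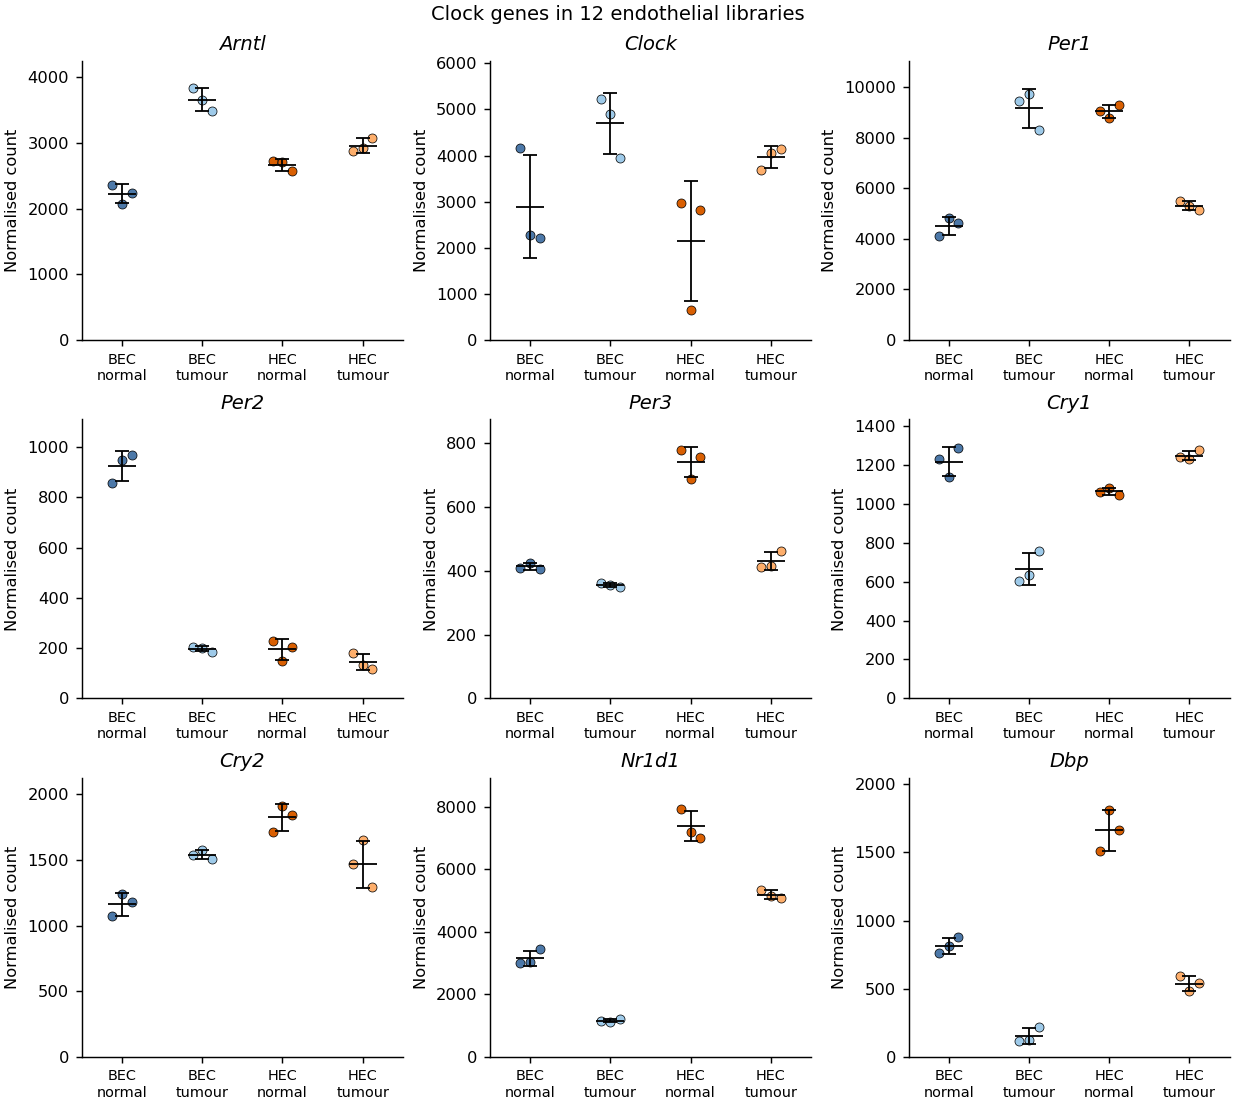
Normalised counts (vertical axes from 0) of the 9 tested clock genes in the 4 endothelial groups, 1 point for each of 3 libraries, with the mean and SD as bars. Dbp and Nr1d1 were highest in HEC normal and lowest in BEC tumour, and the spread of Clock in HEC normal came with the library at 649.

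HECs and BECs of mice without tumours were compared to see how the clock genes differed between the vessel types in the absence of a tumour. Adjusted p is the Benjamini-Hochberg value over all genes tested, and a gene was called when it was under 0.05 and the fold change was over 2. Nr1d1 was higher in HEC normal, 2.34-fold (log2 fold change 1.23 ± 0.08 SE, DESeq2 adjusted p = 2.43e-55), and so were Dbp (2.04-fold, 1.03 ± 0.21, adjusted p = 4.79e-06) and Per1 (2.01-fold, 1.01 ± 0.08, adjusted p = 1.32e-32). Per2 was lower, 4.74-fold (log2 -2.25 ± 0.20, adjusted p = 4.32e-28). Thus 3 of 9 members were called higher, beside 17.1% of all genes, and 1 was called lower, beside 15.1%. With so few members, a count of 1 of 9 beside a share of this size is no more than the background. Per3 (log2 0.84), Cry2 (0.65) and Arntl (0.26) passed the adjusted p without the fold, and Cry1 (-0.20) and Clock (-0.43, 95% interval -1.41 to 0.56) did not pass. By the adjusted p alone 6 of 9 members were higher, beside 31.4% of all genes, and 1 lower, beside 31.9%. Per1 and Dbp lay at the fold threshold. Without the first BEC normal library the log2 difference was 0.94 for Per1 and 0.97 for Dbp, without the third HEC normal library it was 0.99 for Per1, and without the second HEC normal library it was 0.97 for Dbp. The direction of the values held in each case, but the call was lost. For Clock the value turned to 0.01 without the second HEC normal library.

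HEC tumour and BEC tumour were compared in the same way, for vessels of a node and of the primary tumour in mice that carried EO771 cells. Nr1d1 was 4.49-fold higher in HEC tumour (log2 2.17 ± 0.08, DESeq2 adjusted p = 3.03e-160) and Dbp 3.52-fold higher (1.82 ± 0.22, adjusted p = 4.65e-15), so that 2 of 9 members were called higher, beside 11.2% of all genes. No member was called lower, by DESeq2 or by edgeR, beside 10.7% of all genes, and 3 were lower at an unadjusted p under 0.05. Cry1 (log2 0.91) and Per3 (0.28) were above and Per1 (-0.78) and Arntl (-0.31) below at the adjusted p alone. Per2 (-0.46, 95% interval -0.87 to -0.05, adjusted p = 0.0524), Clock (-0.24, -1.23 to 0.74) and Cry2 (-0.07, -0.28 to 0.14) did not pass. By the adjusted p alone 4 of 9 members were higher, beside 25.9% of all genes, and 2 lower, beside 28.4%. The log2 value of Cry1 was 1.01 without the third BEC tumour library, which made it a call.

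With a tumour, Dbp fell in HECs, 3.10-fold (log2 -1.63 ± 0.22, DESeq2 adjusted p = 8.48e-13), as 1 of 9 members called lower beside 3.21% of all genes. None was called higher by DESeq2 or edgeR, beside 4.58% of all genes, with 2 higher at an unadjusted p under 0.05. Per3 (log2 -0.79), Per1 (-0.77), Nr1d1 (-0.51) and Cry2 (-0.31) were below in HEC tumour at the adjusted p alone. Per2 (-0.45, 95% interval -0.86 to -0.03), Arntl (0.15), Cry1 (0.23) and Clock (0.88, -0.10 to 1.87) did not pass. By the adjusted p alone, 5 of 9 members were lower, beside 18.5% of all genes, and none was higher, beside 16.9%. For Arntl, Cry1 and Clock, none of which passed, the 3 HEC tumour libraries were all above the 3 HEC normal libraries. The share of all genes separated in this way is not given here, so this describes the libraries and is not a called rise.

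In BECs, Dbp fell 5.36-fold with a tumour (log2 -2.42 ± 0.22, DESeq2 adjusted p = 2.24e-26), Per2 fell 4.71-fold (-2.23 ± 0.20, adjusted p = 6.87e-28) and Nr1d1 fell 2.72-fold (-1.45 ± 0.08, adjusted p = 5.33e-71). Per1 rose 2.03-fold (1.02 ± 0.08, adjusted p = 1.63e-33). Thus 3 of 9 members were called lower, beside 10.8% of all genes, and 1 higher, beside 12.4%, which is near the background. BEC normal libraries entered both this comparison and that of the cell types without a tumour, so the 2 are not independent. Arntl (log2 0.72), Cry2 (0.41) and Cry1 (-0.87) passed the adjusted p alone, and Per3 (-0.22) and Clock (0.70, 95% interval -0.28 to 1.68) did not pass. Counted by adjusted p alone, 4 of 9 members were lower, beside 27.2% of all genes, and 3 higher, beside 26.5%. The Per1 call again lay at the fold threshold, with log2 0.96 without the first BEC normal library and 0.98 without the second BEC tumour library. The leukocyte marker sum given above was higher in BEC tumour than in BEC normal, and its part in these changes was not tested.

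**Figure D2:**
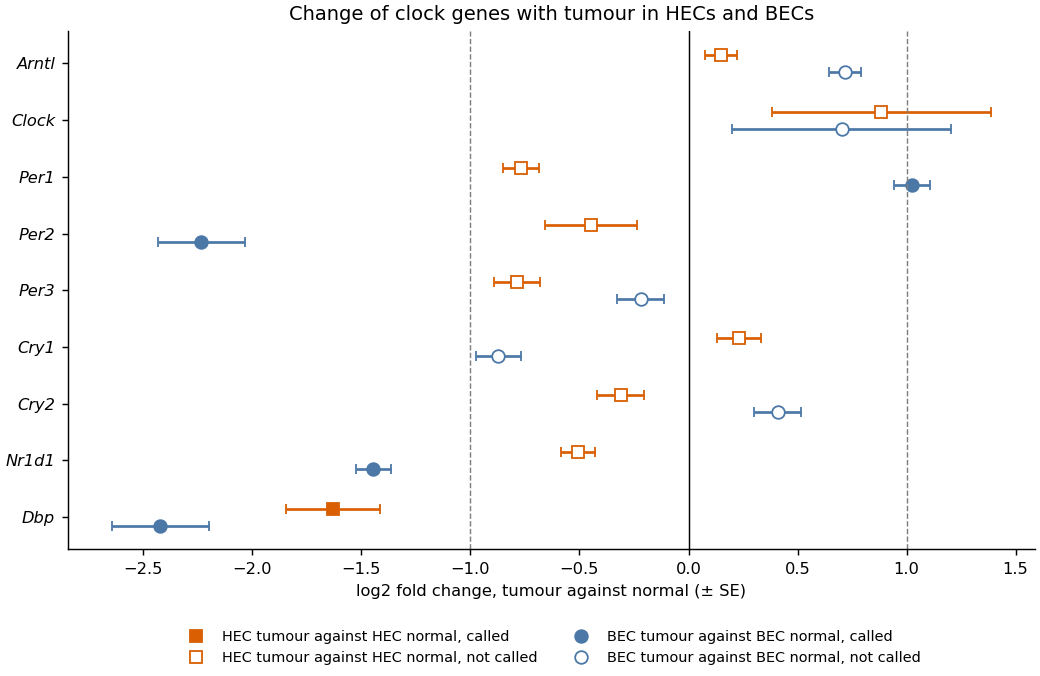
Log2 fold change (horizontal axis, with SE) of 9 clock genes with tumour in HECs (squares) and in BECs (circles), filled where called, with dashed lines at the fold threshold of 2. Dbp was called lower in both cell types, while Per1 lay at -0.77 in HECs and 1.02 in BECs.

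The change with tumour was then compared between the cell types, as the change in HECs less that in BECs. Per1 differed by log2 -1.79 ± 0.12 (DESeq2 adjusted p = 1.24e-50), and Per2 (1.79 ± 0.29, adjusted p = 5.71e-09) and Cry1 (1.10 ± 0.14, adjusted p = 1.64e-13) differed in the positive direction. Hence 2 of 9 members were called positive, beside 11.2% of all genes, and 1 negative, beside 12.1%, counts near the background. Nr1d1 (0.94), Dbp (0.79), Arntl (-0.57), Per3 (-0.57) and Cry2 (-0.72) passed the adjusted p alone and Clock (0.18, 95% interval -1.21 to 1.57) did not pass. Counted by adjusted p alone, 4 of 9 were positive, beside 22.9% of all genes, and 4 negative, beside 23.8%. For Dbp the value was 1.15, a call, without the third BEC tumour library. For Clock it was -0.18 without the first BEC normal library and -0.26 without the second HEC normal library. The 2 changes being compared are of different tissues, digested differently.

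Setting Dbp and Nr1d1 against Arntl within a library removes the scaling between libraries. The log2 ratio of Dbp to Arntl was -0.69 ± 0.14 in HEC normal, -1.45 ± 0.16 in BEC normal, -2.47 ± 0.16 in HEC tumour and -4.65 ± 0.58 for BEC tumour (SD, n = 3). The 4 groups did not overlap in this ratio, the highest BEC tumour library being at -3.99 and the lowest HEC tumour library at -2.60. The log2 ratio of Nr1d1 to Arntl was 1.47 ± 0.07 in HEC normal, 0.81 ± 0.08 in HEC tumour, 0.50 ± 0.14 in BEC normal and -1.66 ± 0.11 for BEC tumour, again with no overlap. Both ratios were lower with a tumour in each cell type, and lowest in BEC tumour. Without an hour of collection, a difference in the time of day and a difference between the groups cannot be told apart.

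**Figure D3:**
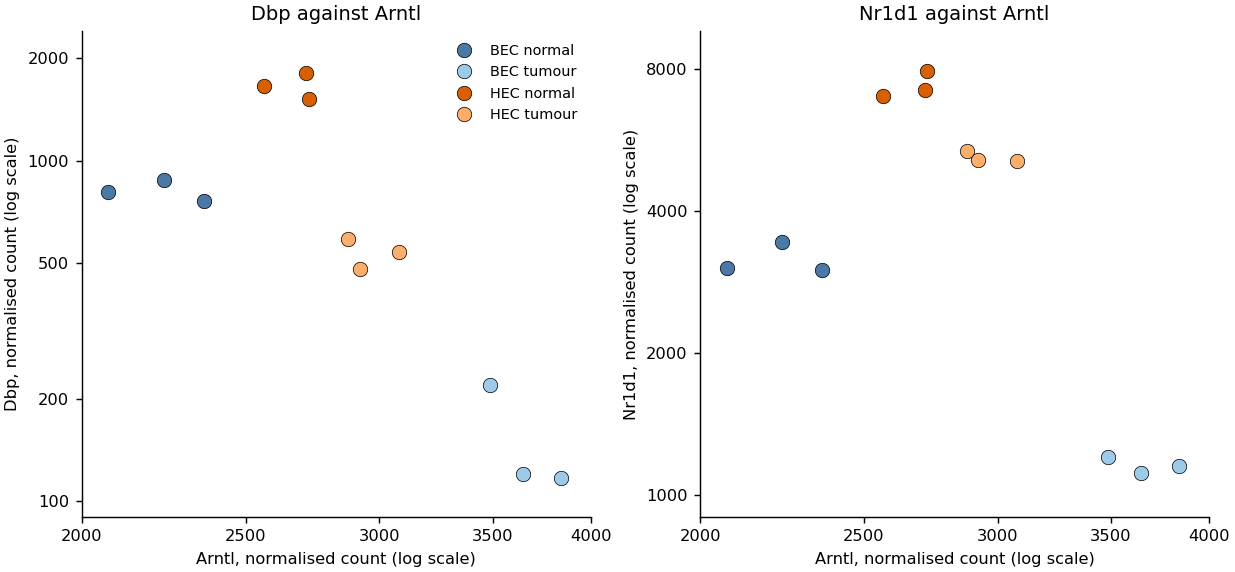
Normalised counts of Dbp (left) and Nr1d1 (right) against those of Arntl in the 12 endothelial libraries, both axes on log scales, with 1 point per library coloured by group. The BEC tumour libraries lie at the lower right, with Arntl between 3486 and 3842, Dbp at 117 to 220 and Nr1d1 at 1115 to 1205.

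Over the 12 endothelial libraries, Nr1d1 and Dbp had a Pearson correlation of 0.90, Per3 and Dbp of 0.81, Per1 and Cry2 of 0.81, and Arntl and Dbp of -0.77. The points of a group share tissue and preparation. Within groups the correlations were 0.35 for Nr1d1 and Dbp, -0.27 for Per3 and Dbp, 0.46 for Per1 and Cry2, and -0.47 for Arntl and Dbp. Other pairs kept their Pearson values: Cry1 and Dbp were at 0.76 over all libraries and 0.85 within groups, and Per1 and Cry1 at -0.74 and -0.71. By rank over all libraries, the Spearman correlation was 0.31 for Cry1 and Dbp and -0.81 for Per1 and Cry1. The third BEC tumour library was the highest of its group for both Cry1 and Dbp. Among 13272 genes with a mean of at least 100, those most like Dbp were Socs3 (0.99), Nxph3 (0.99), Cacnb3 (0.98), Hmga1 (0.98) and Ifitm3 (0.98), with Nr1d1 at rank 164. Those most like Arntl were Was (0.99), Med13l (0.99), Zfp658 (0.98), Amotl1 (0.98) and Samd4 (0.98), with Clock at rank 2664. Was, which is known as a gene of blood cells, averaged 19.5 normalised counts in BEC normal, 347 for BEC tumour, 73.0 in HEC normal and 105 for HEC tumour.

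A wider list of 22 clock-related genes (paralogues, ROR receptors, kinases and ligases of the loop) was counted beside the members. In HEC normal against BEC normal, 5 of 22 were called higher, beside 17.1% of all genes, and 1, Ciart, lower, beside 15.1%, counts near or under the background. The Ciart call was lost without the second BEC normal library. Rorb, a ROR receptor, had counts of 1854, 1826 and 1897 in HEC normal against 42.3, 30.6 and 31.5 in BEC normal (log2 5.72 ± 0.18, DESeq2 adjusted p = 7.22e-209). Bhlhe41, a repressor that competes at E-boxes, was at 3777, 3580 and 3200 against 533, 513 and 455 (log2 2.81 ± 0.11), and Prkaa2, a catalytic subunit of the AMP-activated kinase, at 974, 955 and 900 against 115, 75.3 and 118 (log2 3.19 ± 0.22). The groups were far apart for all 3 genes. With a tumour in BECs, 4 of 22 were called higher, beside 12.4% of all genes, and 3 lower, beside 10.8%, again near the background. By edgeR, 2 were called lower. The same 3 genes had the largest Wald statistics among those called: Rorb at 936, 1084 and 1025 (log2 4.85 ± 0.19), Bhlhe41 at 1733, 1773 and 1621 (1.77 ± 0.11) and Prkaa2 at 760, 736 and 645 (2.79 ± 0.22).

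In HEC tumour the 3 genes stood at 1624, 1269 and 1421 for Rorb, 3149, 2624 and 2769 for Bhlhe41, and 562, 906 and 806 for Prkaa2. Against HEC normal none of the 22 wider genes was called by DESeq2 or edgeR in either direction, beside 4.58% of all genes called higher and 3.21% lower, with 2 higher and 8 lower at an unadjusted p under 0.05. There was 1 gene called lower under TMM scaling, and 1 without the second HEC normal library. The difference between the changes was log2 -5.22 ± 0.22 for Rorb, -2.08 ± 0.15 for Bhlhe41 and -3.11 ± 0.30 for Prkaa2 (DESeq2 adjusted p = 7.79e-121, 1.15e-41 and 1.72e-24). For this difference 5 of 22 wider genes were called negative, beside 12.1% of all genes, and 3 positive, beside 11.2%. The count positive was 2 by edgeR, and 1 without the third HEC normal library. In HEC tumour against BEC tumour, 2 of 22 were called higher, beside 11.2% of all genes, and none lower by DESeq2 or edgeR, beside 10.7%, with 2 lower at an unadjusted p under 0.05. Nr1d2, the paralogue of Nr1d1, had counts of 5511, 5075 and 5497 in HEC tumour against 2157, 2002 and 1848 in BEC tumour (log2 1.42 ± 0.13, adjusted p = 1.05e-27). Ciart, whose stretch with 3 E-box matches is given above, had 192, 201 and 241 against 73.3, 64.3 and 75.0 (log2 1.58 ± 0.23, adjusted p = 4.90e-11).

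In EO771 cells the members were read for a response to 12-HETE. Per1 had counts of 1358, 1336 and 1349 with vehicle and 491, 478 and 509 with 12-HETE, so that the groups were far apart and the replicates close. It fell 2.74-fold (log2 -1.45 ± 0.09, DESeq2 adjusted p = 3.24e-51). Clock had counts of 376, 259 and 569 with vehicle and 779, 801 and 917 with 12-HETE. The vehicle libraries were spread widely but all below the 12-HETE libraries, and Clock rose 2.08-fold (1.05 ± 0.25, adjusted p = 1.00e-04). Thus 1 of 10 members was called lower, beside 7.79% of all genes, and 1 higher, beside 2.38%. Of these, the count lower is near the background. The Clock call was lost without the second vehicle library (log2 0.81) or without the third 12-HETE library (0.98).

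Cry1 was at 451, 383 and 392 with vehicle and 206, 231 and 228 with 12-HETE (log2 -0.88 ± 0.14, DESeq2 adjusted p = 7.27e-09). Arntl was at 666, 611 and 669 against 409, 388 and 377 (-0.73 ± 0.11, adjusted p = 1.99e-09). Nr1d1 was at 518, 565 and 466 against 349, 340 and 367 (-0.55 ± 0.13, adjusted p = 1.14e-04). Per3 was at 25.7, 32.5 and 29.7 against 43.1, 54.2 and 54.1 (0.79 ± 0.32, adjusted p = 0.0311). These 4 passed the adjusted p without the fold, and their groups did not overlap. The share of all genes separated in this way is not given here, so the lack of overlap describes the libraries alone. With Per1 and Clock included, 4 of 10 members were lower by the adjusted p alone, beside 24.2% of all genes, and 2 higher, beside 22.7%. Per2 had 49.5, 61.2 and 73.7 against 54.4, 67.0 and 52.2. Cry2 had 320, 301 and 295 against 264, 285 and 298. Dbp had 52.4, 65.9 and 35.8 against 48.3, 35.5 and 37.4, with the lowest vehicle library among the treated ones. Npas2 had 7.92, 18.2 and 13.3 against 8.22, 6.90 and 11.8. Those 4 overlapped between the groups, and none passed, the 95% interval of the log2 difference being -1.02 to 0.31 for Dbp and -0.38 to 0.15 for Cry2. The log2 ratio of Dbp to Arntl was -3.70 ± 0.51 with vehicle and -3.29 ± 0.19 with 12-HETE (SD, n = 3), and its ranges overlapped.

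**Figure D4:**
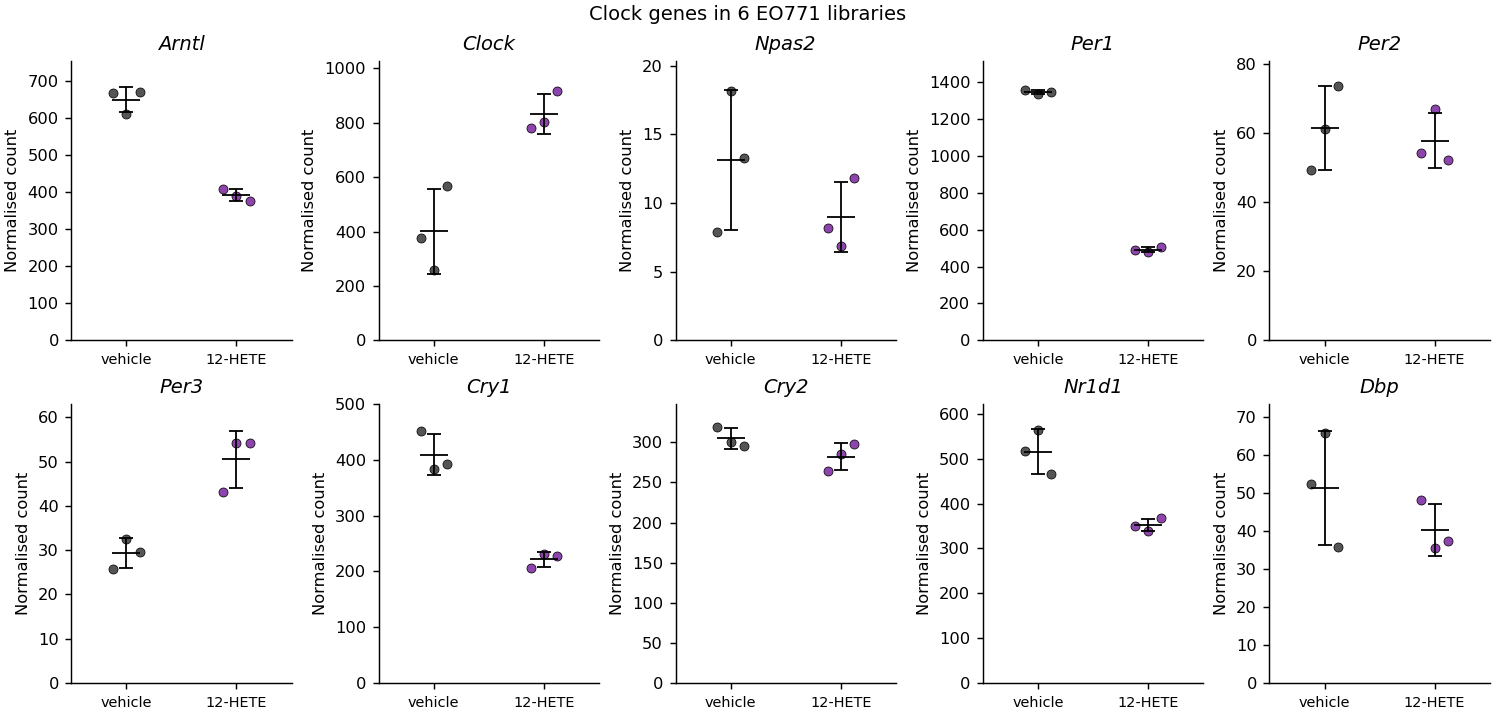
Normalised counts (vertical axes from 0) of the 10 clock genes in EO771 cells given vehicle or 12-HETE, 1 point for each of 3 libraries, with the mean and SD as bars. Per1 falls from 1336 to 1358 with vehicle to 478 to 509 with 12-HETE, and Clock is above the vehicle libraries in all 3 treated libraries.

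Of the wider list, 19 of 22 genes were tested in EO771 cells and 4 were called lower with 12-HETE, beside 7.79% of all genes, and none higher by DESeq2 or edgeR, beside 2.38%, with 4 higher at an unadjusted p under 0.05 and 1 called higher without the first or without the third vehicle library. Nfil3, a repressor at D-boxes, had 828, 743 and 728 against 226, 255 and 207 (log2 -1.74 ± 0.14, DESeq2 adjusted p = 9.13e-36). Bhlhe40, the paralogue of Bhlhe41, had 4294, 3043 and 3642 against 1615, 1495 and 1594 (-1.22 ± 0.14, adjusted p = 5.11e-17). Ciart had 87.1, 146 and 102 against 27.7, 28.6 and 17.7 (-2.18 ± 0.33, adjusted p = 6.41e-10). In all 3 genes every treated library was below every vehicle library, a separation for which no share of all genes is given here. Beside these, 14 of 16 tested immediate early genes, a group switched on by acute stimuli, were called lower and none higher, by DESeq2 or edgeR, with 1 higher at an unadjusted p under 0.05. Their summed level was 3197 to 3544 CPM with vehicle and 976 to 1014 CPM with 12-HETE. Of 14 glucocorticoid-responsive genes, a list that holds Per1 itself, 6 were called lower and none higher, by DESeq2 or edgeR, with 2 higher at an unadjusted p under 0.05, and with a summed level of 1701 to 1935 CPM against 969 to 980 CPM. Their part in the Per1 value was not tested.

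In the endothelial libraries the immediate early sum was 893 to 1017 CPM in BEC normal, 922 to 976 for BEC tumour, 2210 to 2332 in HEC normal and 2462 to 2523 for HEC tumour, with none of the 17 genes at 0. Of the 17, 8 were called higher and 3 lower in HEC normal against BEC normal, where Per1 was also called higher. The 3 were Egr1, Egr2 and Egr3, chosen for naming after their values were seen. In BEC tumour against BEC normal, 2 were called higher and 4 lower. Of all genes, 17.1% were called higher and 15.1% lower in the first of these comparisons, and 12.4% and 10.8% in the second. In HEC tumour against BEC tumour, 11 of the 17 were called higher, beside 11.2% of all genes, while Per1 was at log2 -0.78. None was lower there by DESeq2 or edgeR, beside 10.7%, with 1 lower at an unadjusted p under 0.05. In HEC tumour against HEC normal, 1 was called higher, beside 4.58%. None was lower there by either tool, beside 3.21%, with 3 lower at an unadjusted p under 0.05. The glucocorticoid sum was 1402 to 1480 CPM in BEC normal, 1234 to 1262 for BEC tumour, 1754 to 1802 in HEC normal and 1760 to 1787 for HEC tumour. Its 14 genes did not move as the sum did in HEC normal against BEC normal, where 2 were called higher, Per1 and Dusp1, and 6 lower. In BEC tumour against BEC normal, 1 was called higher and 3 lower. With so few genes, the counts of either list in BEC tumour against BEC normal are near the shares of all genes. The part of either list in the clock gene values was not tested.

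Exons of 4 members overlap genes of the opposite strand in the GENCODE annotation of GRCm38, and the sources used here do not state whether strand was used in counting, although the methods name a directional kit for the EO771 libraries: Arntl with Gm45355, Cry2 with D930015M05Rik, Nr1d1 with Thra and Dbp with Sphk2. How reads that fall on both genes of such a pair were assigned is not given either, so the values of both genes may be affected. Thra was lower in BEC tumour by log2 -1.28 ± 0.12 and in HEC tumour by -0.94 ± 0.12, alongside -1.45 and -0.51 for Nr1d1, while in HEC normal against BEC normal Thra was at -0.28 and Nr1d1 at 1.23. Sphk2, the neighbour of Dbp, was at -0.24 in BECs and -0.32 in HECs with a tumour, against -2.42 and -1.63 for Dbp.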

How the data were processed

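For the 12 endothelial libraries the authors deposited values per Ensembl gene, aligned with STAR and counted with featureCounts on GRCm38, which were used as estimated counts: they are whole numbers whose low values are spaced by a median step of 3.77 (3.74 to 3.83 by library), so that 1 unit is not 1 fragment. The form of the step estimate was chosen after a first estimate had been seen. The EO771 table, as deposited, holds raw counts by gene symbol. No per-library column was left out. The labels name a SMARTER kit for all libraries, whereas the methods name a directional kit for the EO771 libraries, which the study calls stranded, and whether the counting used strand is not given in the sources used here.

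Following the study, genes with a mean of at least 10 were tested with DESeq2 1.42.0 (default size factors, Wald test, two-sided, in R 4.3.3), with the 12 endothelial libraries in 1 fit and the 6 EO771 libraries in another, p-values adjusted by Benjamini-Hochberg over all genes, and calls at an adjusted p under 0.05 and a fold change over 2. Normalised counts are deposited values divided by size factors, and CPM used the library total. Summed exon lengths came from GENCODE. Correlations used log2 of normalised count plus 1. The scripts were tested on simulated data, in which DESeq2 made more false calls in the endothelial table than its nominal rate and edgeR did not, so the endothelial adjusted p values from DESeq2 may be too small. The calls of clock genes were the same in number by both tools. Alternatives were edgeR 4.0.16 (quasi-likelihood), TMM and total scaling, other filters, a test against the fold threshold, division by the step, only the groups compared, a replicate block, and each library left out.

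The members and lists were chosen with earlier results of these data known. All 10 members were named, with, of the wider list, at most the 3 called genes of largest Wald statistic in each comparison, and the 5 genes most correlated with Dbp and with Arntl. In the EO771 table libraries of the same number deviated together (correlations 0.113 to 0.328 against -0.229 to 0.0534 for different numbers). In the endothelial table the ranges overlapped (-0.0299 to 0.132 against -0.164 to 0.119 for different numbers). Both used genes with a mean of at least 100. With 3 libraries a group, precision rests on the spread between libraries, and intervals cover that spread alone.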

Additional observations from a re-analysis of the deposited data

Results flagged for a closer look

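In DESeq2, the tested difference between the tumour change of HECs and that of BECs was called positive for 2 of 9 clock genes and negative for 1. In the wider list it was called positive for 3 of 22 genes, or 2 by edgeR, and negative for 5. Of all genes, 11.2% were called positive and 12.1% negative, so that the clock gene counts are near the background. The difference, HECs less BECs, was log2 -1.79 for Per1, 1.79 for Per2 and 1.10 for Cry1. It was -5.22 for Rorb, -2.08 for Bhlhe41 and -3.11 for Prkaa2, the 3 called wider genes of largest Wald statistic. Cell type, tissue and digestion cannot be told apart in these values. No separate test of a library standing apart was run for the low Clock value of the second HEC normal library. Under the default outlier filter of DESeq2, Clock kept its adjusted p, at 0.470 in HEC normal against BEC normal.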

How the results depend on the processing

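By the adjusted p alone, with no fold threshold, the number of clock genes called was 6 higher in HEC normal against BEC normal, 4 higher and 2 lower in HEC tumour against BEC tumour, 5 lower in HEC tumour against HEC normal, 3 higher and 4 lower in BEC tumour against BEC normal, 4 positive and 4 negative for the difference of the changes, and 2 higher and 4 lower with 12-HETE, each given above beside the share of all genes. Tested against a log2 fold change of 1, it was 1 higher in HEC normal against BEC normal, 0 lower in HEC tumour against HEC normal, 0 higher in BEC tumour against BEC normal, 0 positive for the difference and 0 higher with 12-HETE. Leaving out each library of the groups compared gave 1 to 3 higher in HEC normal against BEC normal, 0 to 1 higher in BEC tumour against BEC normal and 0 to 1 higher with 12-HETE. Directions reversed only for values that had not passed: with each library left out in turn, the log2 value of Clock ranged from -0.73 to 0.011 in HEC normal against BEC normal and from -0.26 to 0.48 for the difference, that of Cry2 from -0.16 to 0.018 in HEC tumour against BEC tumour, and that of Per2 from -0.22 to 0.064 with 12-HETE. The cause was not tested. The replicate block, run in both tables, changed no count of called clock genes.

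EdgeR, both other scalings, both filters, the division by the step and the fits of 2 groups gave the same counts of called clock genes. At this depth Npas2 was too low to test in endothelial cells. The unknown hour of collection, 3 libraries a group and 1 line limit all values.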
